A study of Homo sapiens with 18 samples.

Results

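The amino acid transporters followed here are 10 genes, of 19775 on the array with a probe set of their own: SLC7A5, SLC7A1, SLC3A2, SLC1A5, SLC1A4, SLC38A1, SLC38A2, SLC6A9, SLC7A6 and SLC43A1. They were taken by gene symbol, through every probe set that the annotation of the array platform assigns to exactly 1 of them. This gave 25 of the 54675 probe sets on the array, and 23 of the 25 passed a filter on low signals that kept 27307 probe sets. The cells were Caco-2, an established human colon carcinoma line often taken to model intestinal epithelium. Control cells grew in DMEM and depleted cells in riboflavin-free DMEM, which lacks vitamin B2, both with foetal calf serum, penicillin and streptomycin. Each medium was sampled at 24, 48 and 72 h with 3 arrays per group, which made 6 groups and 18 arrays. The labels mention dialysed serum for some cultures without saying for which arrays. Where the serum differed between the media, its effect and that of riboflavin cannot be told apart. Nor do the labels state that the 3 arrays of a group came from independent cultures. The p-values therefore cover the spread between these arrays alone, which may be technical, and all results concern 1 cell line.

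Amino acids cross the plasma membrane through carriers of several families. SLC3A2 is a heavy chain that brings light chains such as SLC7A5 and SLC7A6 to the membrane, where these exchange 1 amino acid for another. SLC7A1 carries arginine and lysine, SLC38A1 and SLC38A2 take up glutamine, alanine and other small neutral amino acids with sodium, and SLC1A4 and SLC1A5 exchange neutral amino acids. In many cell types several of these genes are under the control of ATF4, a transcription factor whose translation rises when amino acids are scarce or other stress signals are present. ATF4 binds composite DNA elements together with C/EBP proteins.

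To show where letters of such an element lie, the RefSeq promoter windows (GRCh38.p14, from 250 bases before to 50 bases after each annotated start) were searched on both strands for TGATGNAA. All 10 genes had windows, 17 in all, and 5 windows, from 5 genes, held the letters, against 3.62% of all 35116 windows. By gene the share was 4.46% over all genes with windows. Each sequence has 30 bases on the strand of its gene, with the matching letters or their reverse complement in capitals.
SLC1A4, chr2:64989381-64989410 (+): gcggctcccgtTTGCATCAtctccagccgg
SLC3A2, chr11:62881719-62881748 (+): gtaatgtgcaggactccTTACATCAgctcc
SLC7A1, chr13:29595663-29595692 (-): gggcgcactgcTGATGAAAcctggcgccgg
SLC38A1, chr12:46266502-46266531 (-): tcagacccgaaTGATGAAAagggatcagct
SLC1A5, chr19:46784893-46784922 (-): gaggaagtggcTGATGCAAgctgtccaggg
In SLC1A4 the letters ran from -7 to 1 relative to the start of that window, in SLC38A1 from -4 to 4 and in SLC1A5 from -97 to -90. In SLC7A1 they lay at 8 to 15 and in SLC3A2 at 38 to 45, inside the transcribed part of the window. SLC7A1 had 1 window, SLC1A4 and SLC38A1 had 2 each, and SLC1A5 and SLC3A2 had 3 each. In the genes with several windows the letters were in 1 of them, which lay inside the gene, past its outermost start. The windows of SLC38A2, SLC7A5, SLC7A6, SLC6A9 and SLC43A1 did not hold these letters. The E-box letters CACGTG were in windows of SLC7A5, SLC1A5 and SLC43A1 (7.26% of all windows, 8.77% of all genes). TGACNNNGC, the core of the antioxidant response element, was in those of SLC1A5, SLC3A2, SLC7A1, SLC7A5 and SLC7A6 (13.3% and 16.1%). In SLC3A2 the latter was TGACTCAGC at -37 to -29, chr11:62881652-62881681 (+), shown because SLC3A2 is the gene with the largest averaged difference: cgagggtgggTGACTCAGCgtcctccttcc. This window and that of SLC7A1 each held both the first and the last of the 3 motifs. A match describes letters only, and no binding was measured.

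The array numbering ran through the 6 groups 3 times, so each replicate number forms a set of 6 arrays with 1 array per group. Set 2 stood apart: its median signals lay between 25.7 and 31.3, against 18.4 to 23.3 in the other sets, and its highest signals between 27380.2 and 31409.8 against 6904.8 to 8574.5. The ratio of the 3' to the 5' control probe set of ACTB, a measure of RNA integrity, reached 1.91 to 4.62 in set 2, above set 3 (1.13 to 1.22) and partly above set 1 (1.49 to 2.07). Within set 2 it was 4.62 in depleted and 3.24 in control cells at 24 h, and 2.01 and 3.03 at 48 h. The same ratio of GAPDH was not raised in set 2 (0.81 to 0.94, against 0.90 to 1.07 in set 1 and 0.90 to 1.01 in set 3). Results without set 2 are given where they change a call. All 11 epithelial markers chosen for Caco-2 passed the filter. EPCAM had a median signal of 5189, whereas KRT20 (19.4), CDX1 (11.75) and GPA33 (24.2) had low medians. Of the fibroblast markers 6 of 10 passed the filter, with summed signals of 627.3 to 1607.3 per array. Among leukocyte markers 3 passed, with sums of 102.0 to 261.5 and a median signal of 5.45 for PTPRC, the defining marker. The summed fibroblast markers at 72 h were 629.9 to 671.8 under depletion against 923.0 to 1121.9 in controls. By gene the list went both ways at 72 h, with 3 of 6 positive and a median of 0.14 on the log2 scale: PDGFRA was at -1.25 and COL1A1 at -1.05, and COL3A1, DCN and LUM at 0.50, 0.57 and 0.46. Their part in the results on the transporters was not tested. In whole-culture RNA, fewer cells of a type and less RNA per cell cannot be told apart.

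SLC3A2 and SLC38A2 were the 2 transporters with higher expression in depleted cells once the 3 times were averaged. Of the 23 probe sets tested, 3 were called higher and 0 lower by limma (adjusted p under 0.05), from these 2 genes. Over all probe sets tested 4.26% were called, 2.73% as higher and 1.53% as lower. When arrays were compared within each set, with the set as block, 6 of the 23 were called, all higher, against 15.0% of all probe sets called and 8.55% called higher. The added genes were SLC7A1 and SLC1A4, and the remaining probe set of SLC38A2 was called as well. Levels and differences below are log2(signal + 16), which understates the change of weak signals, and values are listed in the order of sets 1, 2 and 3.

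**Figure D1:**
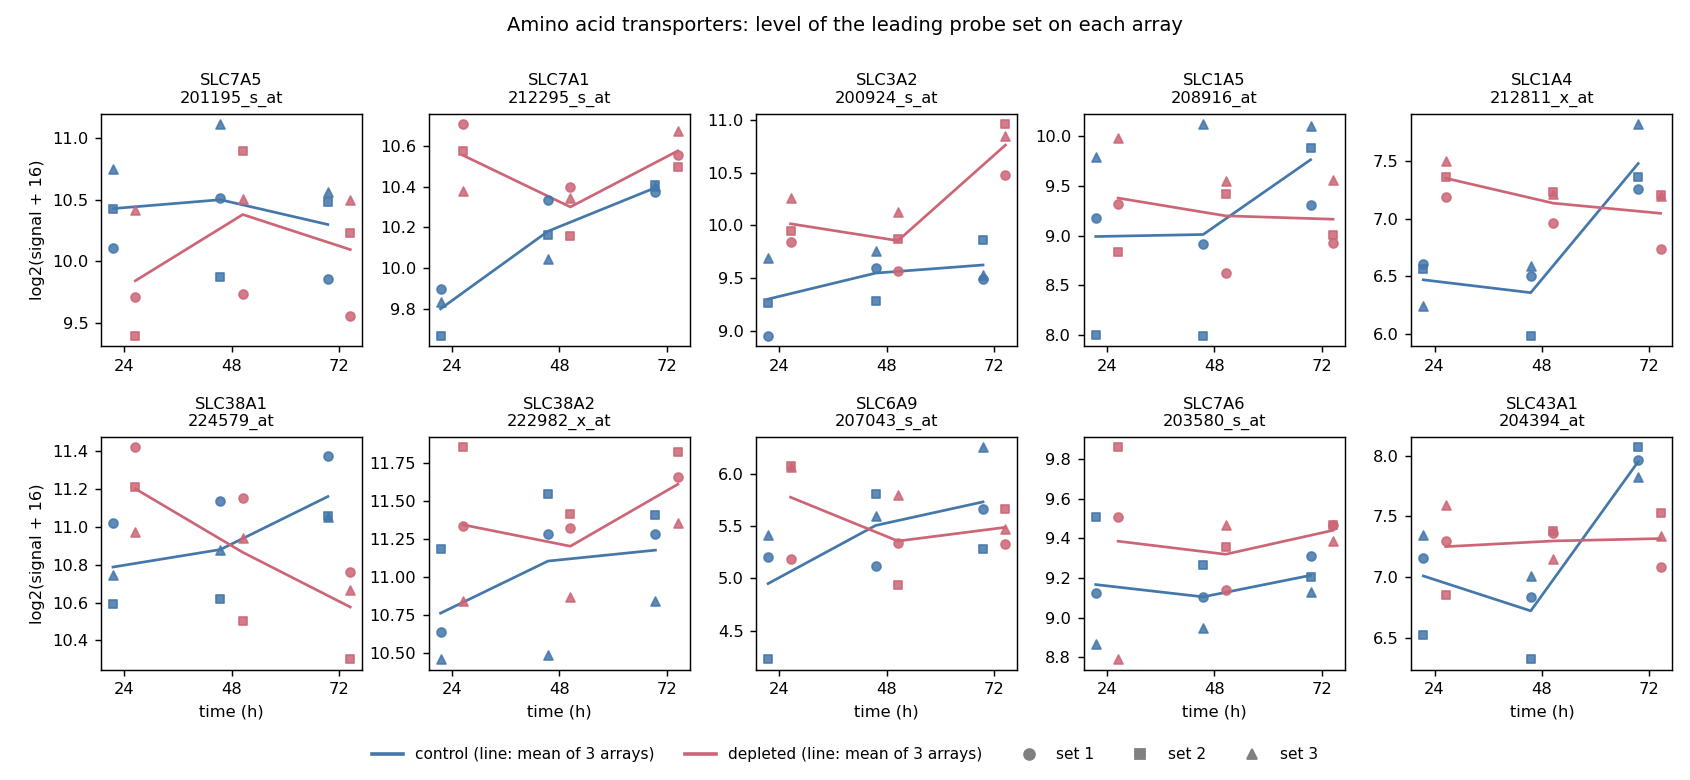
Level of the leading (brightest) probe set of each gene on the 18 arrays, as log2(signal + 16) against time in hours, with control cells in blue, depleted cells in red, 1 symbol per set and lines through the means of 3 arrays. SLC3A2 reached 10.48 to 10.96 in depleted cells at 72 h, above every other group. The depleted and control lines of SLC1A4, SLC1A5, SLC38A1, SLC43A1 and the weak SLC6A9 cross before 72 h.

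SLC3A2, the heavy chain shared by several exchangers, had the largest averaged difference of the 23 probe sets. Its levels in control cells were 8.95, 9.26 and 9.69 at 24 h, 9.60, 9.28 and 9.76 at 48 h, and 9.49, 9.86 and 9.53 at 72 h. In depleted cells they were 9.84, 9.95 and 10.26 at 24 h, 9.57, 9.87 and 10.13 at 48 h, and 10.48, 10.96 and 10.84 at 72 h. The media did not overlap at 24 h and 72 h and overlapped at 48 h, where the depleted array of set 1 lay just below its control. By group the order from lowest to highest mean was control 24 h (9.30 ± 0.37, SD, n = 3), control 48 h (9.55 ± 0.24), control 72 h (9.62 ± 0.20), depleted 48 h (9.85 ± 0.28), depleted 24 h (10.01 ± 0.22) and depleted 72 h (10.76 ± 0.25). Neighbours among the first 5 of these differed by less than their SDs added together, and only depleted cells at 72 h stood clear of the rest. Averaged over times depletion raised SLC3A2 1.65-fold (log2 0.72, SE 0.14, adjusted p = 0.00697, limma), and this call was kept in 18 of 18 fits that left out 1 array. At 72 h it rose 2.20-fold (log2 1.14, SE 0.24, adjusted p = 0.0115), and at 24 h and 48 h the differences were 0.71 (SE 0.24, adjusted p = 0.356) and 0.31 (SE 0.24, adjusted p = 0.861). The 72 h call was lost without the control array of that time from set 1 or 3 (adjusted p = 0.0555 and 0.0502) and without the depleted array from set 2 or 3 (0.0555 and 0.0528). Without set 2 the adjusted p was 0.0774 at 72 h and 0.067 for the average, with differences of 1.16 and 0.68. Within depleted cells SLC3A2 was 0.75 higher at 72 h than at 24 h, which passed the test with the set as block (adjusted p = 0.0175) and not without it (0.127).

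The light chains did not follow the heavy chain in one direction. SLC7A5, which brings leucine and other large neutral amino acids into cells and is linked to SLC3A2 by a disulphide bond, lay in control cells at 10.11, 10.42 and 10.75 at 24 h and at 9.86, 10.48 and 10.56 at 72 h. In depleted cells it lay at 9.71, 9.40 and 10.42 at 24 h and at 9.56, 10.23 and 10.50 at 72 h. Within each set SLC7A5 was thus lower in depleted cells at both times, but the groups overlapped, and set 2 went the other way at 48 h (9.88 in control, 10.89 in depleted cells). Its averaged difference was -0.30 (SE 0.22) and did not pass the test (adjusted p = 0.531, limma).

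SLC7A6, the light chain that exchanges arginine for glutamine with sodium, had 3 probe sets. At 72 h each of them was higher in depleted cells within every set, by unlike amounts. The differences at that time were 0.16, 0.26 and 0.26 for 203580_s_at and 0.22, 0.41 and 0.36 for 203579_s_at. At 24 h and 48 h the differences of 203579_s_at had both signs. The leading one, 203580_s_at, was 0.22 higher in depleted cells on average (SE 0.14, adjusted p = 0.471). In 203578_s_at control cells had 7.92, 7.54 and 8.26 at 72 h and depleted cells 8.72, 8.30 and 9.06. These groups did not overlap, and the difference of 0.79 (SE 0.28) was called with the set as block (adjusted p = 0.0028) but not without it (0.136). The same probe set differed by -0.09 at 24 h and -0.03 at 48 h, so the change of its effect from 24 h to 72 h was 0.88 (adjusted p = 0.445, and 0.0267 with the block). In depleted cells it was 0.74 higher at 72 h than at 24 h (adjusted p = 0.211, and 0.00639 with the block).

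SLC38A2, the carrier of the amino-acid-regulated transport activity known as system A, was higher in depleted cells through each of its 3 probe sets. In 218041_x_at control cells had 9.94, 10.10 and 10.00 at 24 h, 10.58, 10.45 and 9.97 at 48 h, and 10.45, 10.56 and 10.20 at 72 h. Depleted cells had 10.68, 10.91 and 10.46 at 24 h, 10.63, 10.59 and 10.33 at 48 h, and 11.09, 11.20 and 11.01 at 72 h. The depleted array was the higher one in 9 of 9 pairs of a set and time, a pattern seen in 3.61% of all probe sets, and the media did not overlap at 24 h and 72 h. This probe set was 1.43-fold higher in depleted cells on average (log2 0.52, SE 0.12, adjusted p = 0.0186, limma). For 220924_s_at the value was 1.46-fold (0.55, SE 0.12, adjusted p = 0.0188). The brightest probe set, 222982_x_at, differed by 0.37 (SE 0.18) and was called only with the set as block (adjusted p = 0.303 without and 0.0126 with it). Centring each array on its 75th percentile ended both calls (adjusted p = 0.0751 for 218041_x_at and 0.0738 for 220924_s_at), as did leaving out set 2 (0.0835 and 0.0578).

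By time, the values for SLC38A2 were smaller at 48 h than at 24 h and 72 h. For 218041_x_at it was 0.67 at 24 h, 0.18 at 48 h and 0.70 at 72 h (SE 0.20 each, adjusted p = 0.292, 0.925 and 0.0633). With the set as block the differences at 24 h and 72 h were called (adjusted p = 0.0216 and 0.00411). For 220924_s_at the difference at 72 h was 0.71 (adjusted p = 0.0782, and 0.0203 with the block), where control cells had 10.09, 10.19 and 10.13 and depleted cells 11.03, 10.61 and 10.90.

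SLC38A1, which carries much the same amino acids as SLC38A2, had another course. Its leading probe set, 224579_at, was at 11.02, 10.59 and 10.75 in control and 11.42, 11.21 and 10.97 in depleted cells at 24 h. At 48 h the media were nearly level, with 11.14, 10.62 and 10.88 in control and 11.15, 10.50 and 10.94 in depleted cells. At 72 h control cells had 11.37, 11.05 and 11.05 and depleted cells 10.76, 10.30 and 10.67, with no overlap. Its difference was 0.41 at 24 h (SE 0.23, adjusted p = 0.679) and -0.58 at 72 h (SE 0.23, adjusted p = 0.189, and 0.0135 with the block). The change between these times was -0.99 (SE 0.32, adjusted p = 0.217, and 0.0129 with the block), and within depleted cells the level at 72 h was -0.62 against 24 h (adjusted p = 0.195, and 0.0126 with the block). The probe set 218237_s_at did not share this course: it was 0.44 higher at 24 h and 0.25 higher at 72 h in depleted cells, with neither called. For 224580_at the differences were 0.40 and -0.32, and the remaining probe set of SLC38A1, 236857_at, had a median signal of 2.1 and did not pass the filter.

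SLC7A1, the carrier of arginine and lysine, had its largest difference at 24 h in the leading probe set but not in the others. In the leading probe set, 212295_s_at, control cells had 9.90, 9.67 and 9.83 at that time and depleted cells 10.71, 10.58 and 10.38. Later the media came close, with 10.34, 10.16 and 10.04 in control and 10.40, 10.16 and 10.34 in depleted cells at 48 h, and 10.37, 10.41 and 10.40 against 10.55, 10.50 and 10.68 at 72 h. Control cells thus ended above their own 24 h level while depleted cells stayed near theirs. The 24 h difference was 0.75 (SE 0.17), which was not called without the block (adjusted p = 0.116) and was called with it (0.0101). The averaged difference of 0.35 (SE 0.10) was likewise called with the block only (adjusted p = 0.0568 without and 0.00713 with it), and the same held for the gain of 0.60 in control cells from 24 h to 72 h (0.324 and 0.0448).

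The other probe sets of SLC7A1 gave another picture. The averaged differences were 0.48 for 212290_at, 0.26 for 212292_at and 0.32 for 206566_at, none of them called, and their differences at 24 h were 0.36, -0.06 and -0.31 against 0.46, 0.44 and 0.93 at 72 h. In 206566_at depleted cells had 4.22, 5.06 and 7.03 at 24 h and 6.39, 7.64 and 7.30 at 72 h, a gain of 1.67 that was called with the block only (adjusted p = 0.0305, and 0.216 without it). Set 3 stood at 7.03 already at 24 h, so the gain lay mostly in sets 1 and 2. The fifth probe set of SLC7A1, 215979_s_at, had a median signal of 7.1 and did not pass the filter.

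SLC1A4, the exchanger of alanine, serine, cysteine and threonine, had the largest change of its depletion effect between times. In 209610_s_at control cells had 6.40, 5.13 and 6.24 at 24 h, 6.12, 5.36 and 6.59 at 48 h, and 7.44, 7.99 and 7.93 at 72 h. Depleted cells had 7.85, 7.24 and 7.58 at 24 h, 6.91, 7.29 and 7.20 at 48 h, and 6.62, 7.54 and 6.63 at 72 h. Depleted arrays were above all control arrays at 24 h and 48 h, and at 72 h each lay below the control of its set. The depletion effect was 1.63 at 24 h (3.10-fold, SE 0.36), 1.11 at 48 h (SE 0.36) and -0.86 at 72 h (SE 0.36), none called singly without the block (adjusted p = 0.108, 0.466 and 0.236). Its change from 24 h to 72 h, -2.49 (SE 0.52), passed the test (adjusted p = 0.0378, limma), as the 1 member probe set among the 23, where 0.645% of all probe sets were called and 0.293% called lower. Control cells gained 1.87 over that time (adjusted p = 0.0597, and 0.0281 with the block), while depleted cells differed by -0.63 (adjusted p = 0.47).

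**Figure D2:**
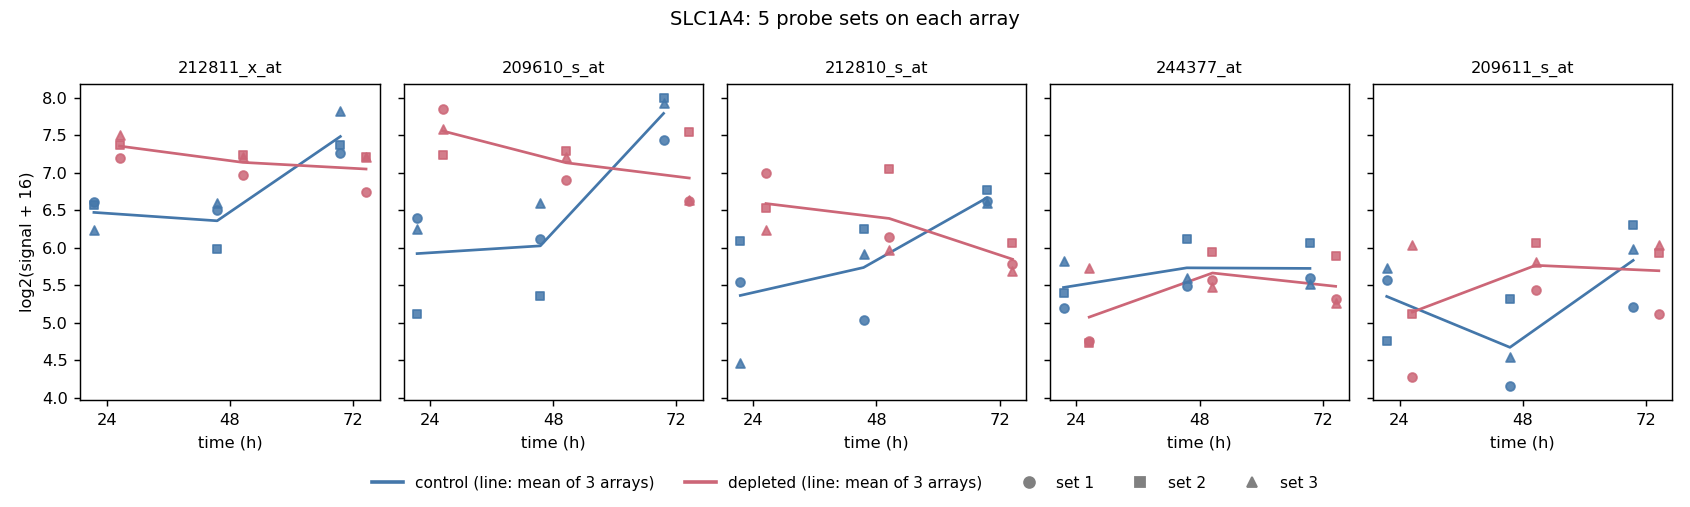
Levels of the 5 probe sets of SLC1A4 as log2(signal + 16) against time in hours, with control cells in blue, depleted cells in red, 1 symbol per set and lines through the means of 3 arrays. In the first 3 panels depleted means are the higher ones at 24 h and the lower ones at 72 h, and at 24 h 209610_s_at has control arrays at 5.13 to 6.40 and depleted ones at 7.24 to 7.85, whereas in the last 2 panels depleted means are the lower ones at both times.

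The reversal in SLC1A4 was seen in 3 of its 5 probe sets. The leading one, 212811_x_at, had 6.61, 6.56 and 6.24 in control and 7.19, 7.37 and 7.50 in depleted cells at 24 h, and 7.26, 7.36 and 7.82 against 6.74, 7.21 and 7.20 at 72 h. The media did not overlap at either time, nor at 48 h, and lay in opposite order at the first and last time. The change of its effect was -1.32 (SE 0.32, adjusted p = 0.0775, and 0.018 with the block), and for 212810_s_at it was -2.04 (SE 0.55, adjusted p = 0.117, and 0.0222 with the block). From 48 h to 72 h the effect on 212811_x_at changed by -1.21 (adjusted p = 0.179, and 0.0406 with the block). At 24 h, 212811_x_at differed by 0.88 (adjusted p = 0.164) and 209610_s_at by 1.63, and both were called with the block (adjusted p = 0.0329 and 0.0335). The averaged difference of 212811_x_at was 0.41 (adjusted p = 0.0936, and 0.0283 with the block), and its gain of 1.01 in control cells from 24 h to 72 h was called with the block only (adjusted p = 0.126 and 0.0272). In the weak probe sets 244377_at and 209611_s_at the changes from 24 h to 72 h were 0.16 and 0.07. The latter did differ by 1.09 at 48 h without overlap (adjusted p = 0.591), and its change from 48 h to 72 h was -1.23 (adjusted p = 0.604, and 0.215 with the block).

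Single arrays bore on the call for SLC1A4. The change in 209610_s_at stayed called in 5 of 18 fits that left out 1 array, those without the control array at 24 h of set 1, a control array at 48 h of set 2 or 3, or the depleted array of set 2 at 48 h or 72 h. In the 18 fits the limma adjusted p ran from 0.0278 to 0.109, and without set 2 it was 0.0524 at a change of -2.45. Of 26 alternatives, these fits included, 9 kept the call. It was lost with a pseudocount of 4, without the filter and under quantile normalization without a block. The control signal of set 2 at 24 h was 18.9, under the filter level of 19.62.

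SLC1A5, which exchanges glutamine and is the close relative of SLC1A4, varied more between sets than between media. Control cells had 9.17, 8.01 and 9.80 at 24 h, 8.92, 7.99 and 10.12 at 48 h, and 9.31, 9.88 and 10.11 at 72 h. Depleted cells had 9.32, 8.84 and 9.98 at 24 h, 8.63, 9.42 and 9.55 at 48 h, and 8.93, 9.01 and 9.56 at 72 h. Within sets the depleted array was the higher one 3 times at 24 h and the lower one 3 times at 72 h, and the groups overlapped at every time. The differences of 0.39, 0.19 and -0.60 (SE 0.50 each) did not pass the test (adjusted p = 0.92, 0.976 and 0.637, limma). The 48 h value turned to -0.43 without set 2.

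SLC43A1, a carrier of large neutral amino acids that works without the heavy chain, was at 7.16, 6.53 and 7.35 in control and 7.30, 6.86 and 7.60 in depleted cells at 24 h. At 48 h it was at 6.83, 6.33 and 7.01 against 7.36, 7.38 and 7.15, and at 72 h at 7.96, 8.07 and 7.82 against 7.09, 7.53 and 7.34. Depleted arrays lay above all control arrays at 48 h and below all of them at 72 h. The differences were 0.24, 0.57 and -0.63 (SE 0.26 each, adjusted p = 0.9, 0.641 and 0.208, limma). None was called with the block, where the adjusted p at 72 h was 0.0867. In control cells the level was 0.94 higher at 72 h than at 24 h (adjusted p = 0.269), and in depleted cells 0.07 higher (0.954).

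SLC6A9, a glycine transporter best known from the nervous system, had a weak signal, with a median of 27.5 against the filter at 19.62. At 24 h it was at 5.21, 4.22 and 5.42 in control and 5.19, 6.08 and 6.07 in depleted cells, so that set 1 showed no difference. The 24 h value was 0.83 (SE 0.35, adjusted p = 0.527) and the 72 h value -0.24 (SE 0.35, adjusted p = 0.826).

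**Figure D3:**
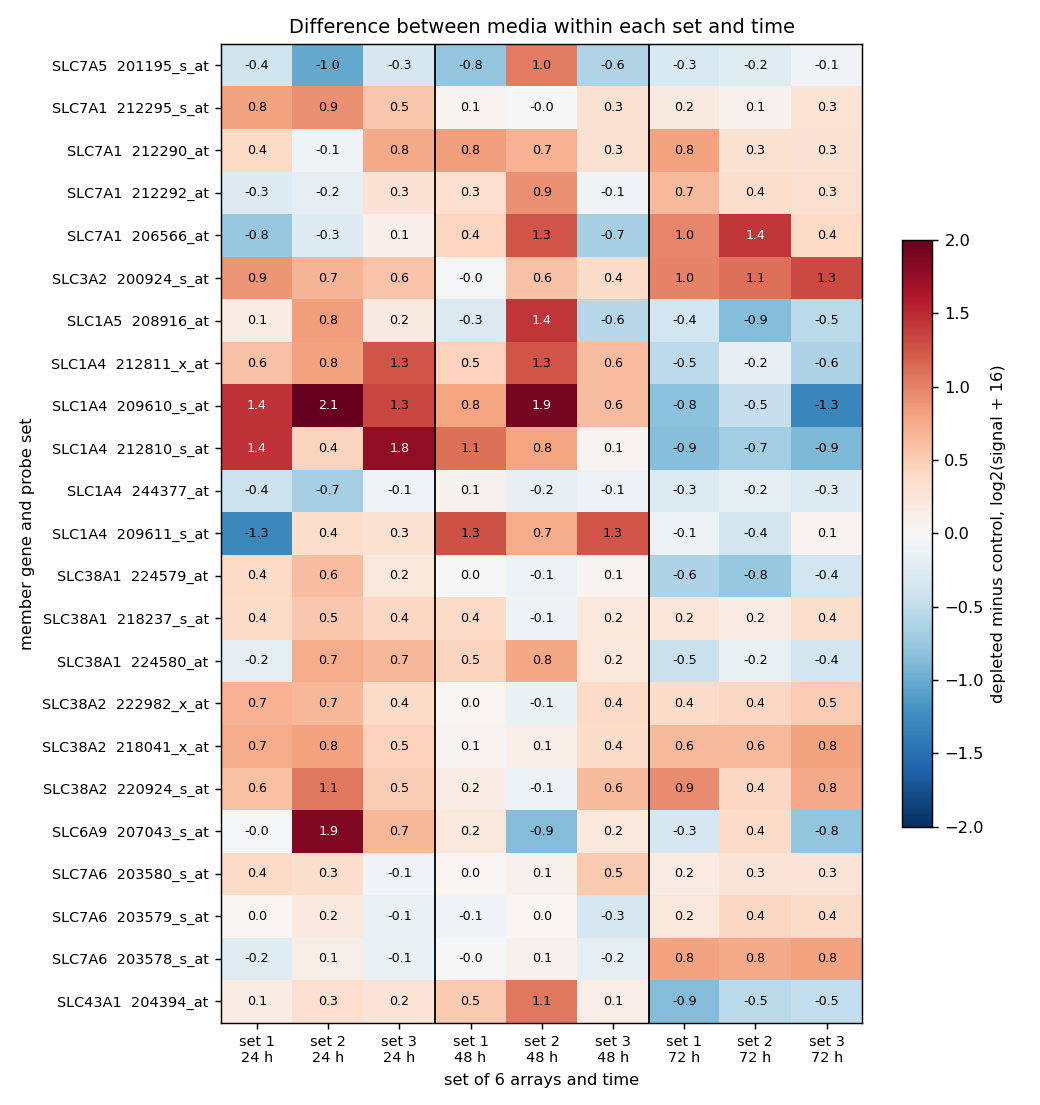
Depleted minus control array, paired by set and time, as log2(signal + 16), for the 23 tested probe sets of the 10 transporters (red: higher in depleted cells, blue: lower), with times in blocks of 3 columns. SLC38A2 218041_x_at is the 1 row with a positive difference in 9 of 9 columns, and 6 rows of SLC1A4, SLC1A5, SLC38A1 and SLC43A1 are red in all columns at 24 h and blue in all at 72 h.

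Read across the family at single times, most probe sets had higher means in depleted cells at 24 h, and both directions were seen at 72 h. Not all were higher at 24 h: SLC7A5 was lower in each set (-0.40, -1.02 and -0.33). Some probe sets of SLC7A1, SLC1A4 and SLC7A6 also had lower depleted means at that time. At 24 h 0 of 23 probe sets were called by limma (0.216% of all), 8 had an unadjusted p under 0.05 (8.37% of all), and with the block 4 were called, all higher (2.37% of all called, 1.55% called higher). The depleted arrays lay above all control arrays in 8 probe sets (7.50% of all) and below them in 0 (5.28%). At 48 h 0 were called (0.0806% of all), 5 had an unadjusted p under 0.05 (7.44%), and 0 were called with the block (0.692%). Groups at 48 h did not overlap in 6 probe sets with depleted cells higher (8.07% of all) and in 0 with them lower (3.77%). At 72 h 1 was called (4.16% of all), as higher (2.23%), and 5 with the block (13.3%), of which 4 were higher (6.40%) and 1, SLC38A1, lower (6.90%). Groups did not overlap at 72 h in 7 probe sets with depleted cells higher (11.5% of all) and in 4 with them lower (11.6%), so these counts at 72 h are to be read beside a wide background.

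In 1 or more probe sets of 4 genes the paired differences had opposite signs at 24 h and 72 h. The change itself was called for 1 of these genes, SLC1A4, through 209610_s_at, and with the block also for SLC38A1, through 224579_at. It was not called for SLC1A5 (limma adjusted p = 0.724, and 0.299 with the block) or SLC43A1 (0.389 and 0.151). The other bright probe set of SLC38A1, 218237_s_at, did not turn and was higher in depleted cells in every set at both times. In 6 of 23 probe sets, from SLC1A4 (3), SLC1A5, SLC38A1 and SLC43A1, the depleted array was higher in 3 of 3 sets at 24 h and lower in 3 of 3 at 72 h, against 5.26% of all probe sets. Probe sets of 1 gene share transcripts, so these are fewer than 6 separate observations. With the block the change from 24 h to 72 h was called in 5 of 23 (4.58% of all), lower in 4, of SLC1A4 (3) and SLC38A1 (2.71%), and higher in 1, of SLC7A6 (1.87%). The F-test for any change over the 3 times called 0 of 23 (0.311% of all) with 7 at an unadjusted p under 0.05 (8.42%), and with the block it called 5 (3.49%). From 48 h to 72 h 0 were called (0.168% of all), 6 had an unadjusted p under 0.05 (8.59%), and 1, of SLC1A4, was called with the block (2.25%, and 1.23% as lower).

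**Figure D4:**
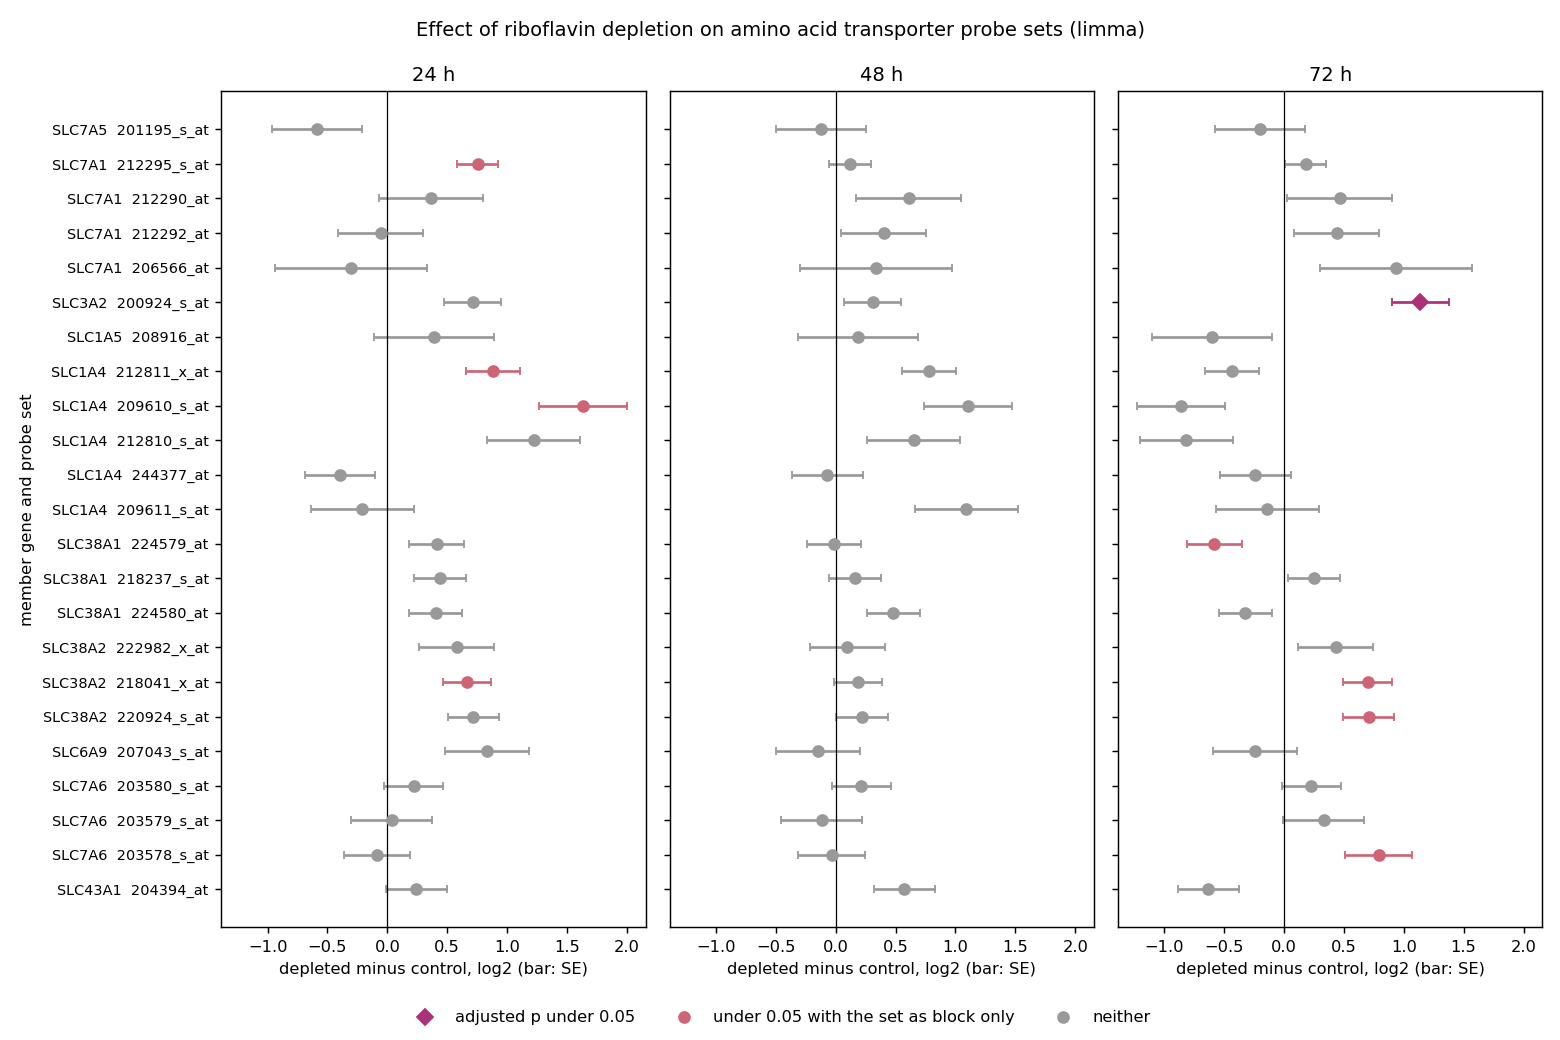
Effect of depletion at 24, 48 and 72 h on the 23 tested probe sets, as depleted minus control on the log2(signal + 16) scale, with bars for the SE of the limma fit (3 arrays per group). The diamond marks the 1 probe set with an adjusted p under 0.05, SLC3A2 at 72 h (1.14), and red circles mark those called only with the set as block.

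In control medium several transporters had higher values at 72 h than at 24 h, of which 2, SLC1A4 and SLC7A1, passed the test with the block and none without it. At 72 h control arrays lay above all control arrays of 24 h in 10 of 23 probe sets, from SLC1A4, SLC7A1, SLC38A1, SLC38A2 and SLC43A1, and below them in 0, against 5.53% and 5.00% of all probe sets. By limma 0 of these were called (0.117% of all) and 6 had an unadjusted p under 0.05 (6.78%), while 3 were called with the block, as higher (1.22% of all called, 0.729% called higher), from SLC1A4 and SLC7A1. In depleted cells 4 probe sets were higher at 72 h without overlap (8.57% of all) and 2 lower (11.2%). There 0 were called (2.07% of all) and 5 had an unadjusted p under 0.05 (14.4%). With the block 4 were called (10.3%), higher for SLC3A2, SLC7A6 and SLC7A1 (4.37%) and lower for SLC38A1 (5.93%). For SLC7A1 this was the weaker probe set 206566_at. Its leading probe set 212295_s_at, the one called in control cells, differed by 0.02 between these times in depleted cells. The control arrays at 24 h and 72 h enter both the time course and the depletion effects, so the values are not independent of one another.

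By leading probe sets the median difference of the 10 genes was 0.50 at 24 h, 0.15 at 48 h and -0.22 at 72 h, beside 0.01, 0.03 and -0.04 over all 12319 genes. At 24 h 9 of the 10 were above 0, SLC7A5 being the exception, and at 72 h 4 of 10 were, SLC3A2, SLC38A2, SLC7A6 and SLC7A1. In control cells the median gain from 24 h to 72 h was 0.50, with 9 of 10 above 0, and in depleted cells it was 0.04.

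Other amino acid transporters of the plasma membrane went in both directions. Of 31 genes listed 17 were measured, and on average 1 was higher and 2 were lower in depleted cells (1 and 4 with the block), with a median of -0.16 against 0.18 for the 10. Over all 12319 genes 306 were higher and 266 lower (1035 and 1085 with the block). The higher one was SLC7A11, the cystine-glutamate exchanger that also pairs with SLC3A2 (log2 1.19, SE 0.13, adjusted p = 8.84e-05, limma). The lower ones were SLC16A10, which carries aromatic amino acids (-0.84, SE 0.16, adjusted p = 0.00616), and SLC1A3, a glutamate transporter (-0.58, SE 0.13, adjusted p = 0.0176). SLC3A1, the heavy chain of the cystine and dibasic amino acid carrier of the brush border, differed by -0.41 (SE 0.17, adjusted p = 0.197) and was called with the block (0.0475). A further list, drawn up as lysosomal amino acid transporters, had 8 genes, all measured. What each gene carries and where it lies in the cell were not checked, so the list may hold genes of other kinds. Of the 8, 0 were called by limma and 1, SLC38A10, with the block (-0.60, adjusted p = 0.13 and 0.00933). SLC29A3, SLC36A1, which both lists hold, and SLC38A7 differed by 0.47, -0.28 and 0.31 and were not called.

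Genes of the ATF4 and amino acid response that are not transporters were measured for 32 of 34. On average 7 were higher and 1 lower (15 and 2 with the block), and the median was 0.25. Over all 12319 genes 306 were higher and 266 lower (1035 and 1085 with the block). Those with the smallest p were CTH, an enzyme of cysteine synthesis (1.11, SE 0.12, adjusted p = 8.97e-05, limma), DDIT4, an inhibitor of mTORC1 signalling (1.38, SE 0.17, adjusted p = 0.000225), and the transcription factors ATF3 (0.99, SE 0.18, adjusted p = 0.00506) and CEBPB (0.69, SE 0.14, adjusted p = 0.00907). At 24 h 4 of the 32 were higher and 0 lower (13 and 0 with the block), with a median of 0.59, beside 29 and 8 of all genes (244 and 121 with the block). At 72 h 3 were higher and 2 lower (7 and 5 with the block), with a median of 0.05, beside 236 and 304 of all genes (765 and 1066 with the block). In control cells 6 gained from 24 h to 72 h and 0 fell (16 and 0 with the block), with a median of 0.85, beside 10 and 14 of all genes (123 and 71 with the block). For the 10 transporters the corresponding medians were 0.50, -0.22 and 0.50. Members of both lists were chosen with results of these data known, so the likeness of the medians is a description.

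**Figure D5:**
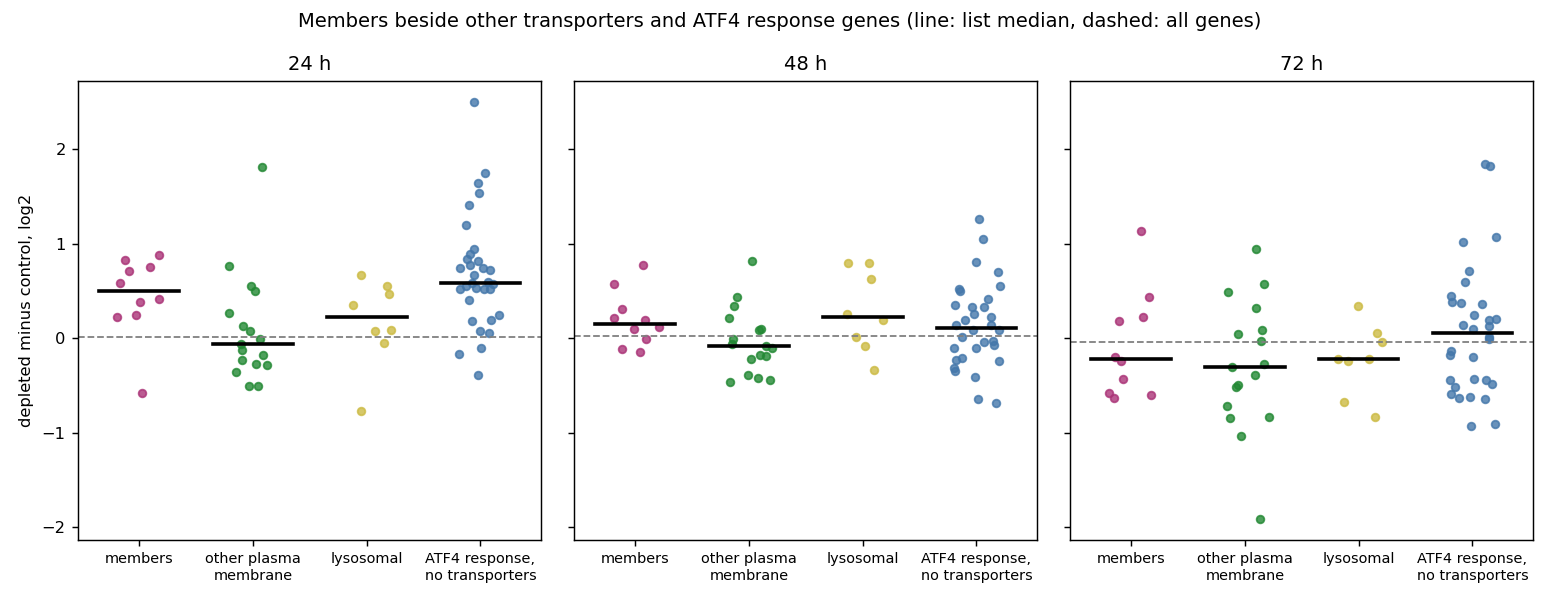
Effect of depletion at 24, 48 and 72 h, as depleted minus control on the log2(signal + 16) scale, for the leading probe set of each gene in 4 lists, with black lines at list medians and a dashed line at the median of all 12319 genes. The medians of the 10 transporters (0.50, 0.15 and -0.22) and of the ATF4 response genes (0.59, 0.11 and 0.05) were highest at 24 h.

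Likeness of course was measured as Pearson's r over the 18 arrays after the mean of each set was taken away, against 22923 probe sets of other genes. The arrays share media, times and sets, and the best of so many comparisons is high by choice, so no p is given. For SLC7A1, by its leading probe set, the closest genes were ATF4 and ASNS, with the same value (r = 0.9132). That probe set had r = 0.43, 0.25 and 0.17 with the other tested probe sets of SLC7A1. SLC3A2 was closest to SWAP70 (0.97), SLC38A2 to DYRK1A (0.94), SLC1A4 to VMA22 (0.94), SLC38A1 to IFT80 (0.94) and SLC43A1 to ACYP2 (0.94). SLC1A5 was closest to TM9SF4 (0.93), SLC7A5 to CFL1 (0.92), SLC6A9 to MKS1 (0.87) and SLC7A6 to ZC2HC1A (0.83). Among the 10 themselves r was 0.88 for SLC7A1 with SLC38A2, 0.79 for SLC3A2 with SLC38A2 and for SLC1A5 with SLC43A1, and 0.72 for SLC7A1 with SLC3A2 and for SLC1A4 with SLC43A1, the 5 highest values among leading probe sets. For SLC3A2 with its partner SLC7A5 it was -0.24.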

How the data were processed

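The deposited values were MAS5 signal intensities, 1 per probe set and array, per the submitters' processing notes, and no source used here gives the MAS5 version. The scaling of the authors was kept. Signals were used as log2(signal + 16), without the 62 control probe sets and without those whose mean lay under the median of 5.15 (signal 19.62). All 18 arrays were fitted in limma 3.58.1 (R 4.3.3) as 6 group means, with Benjamini-Hochberg adjustment across the 27307 probe sets kept and a threshold of 0.05. The fit without a block was tried on simulated data with independent errors and no set effect, for the averaged contrast only. It therefore says nothing on the other contrasts or on the fit with the block. After group means were taken away, arrays of 1 set correlated at 0.302 to 0.602 in all 45 pairs, so the set numbers, taken from the array numbering in the labels, pair the arrays, and a second fit of each contrast took the set as replicate block.

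All 10 genes were named through every tested probe set, with the brightest as leading one. From each other list up to 4 genes with the lowest p for depletion averaged over times were named. For each of the 10 the most similar other gene was named, with ASNS added for SLC7A1 because its rounded r equalled that of ATF4. Members, lists and the choices above were made with earlier results of these data known. The array numbers limit the precision of every value. Alternatives were other pseudocounts, no filter, 75th percentile centring, quantile normalization, each array left out and set 2 left out. Promoter windows were RefSeq sequences. Probe sequences and detection calls were not used here. Probe sets with the suffixes _s_at and _x_at can match several transcripts. Python 3.11.15 with matplotlib 3.10.9 drew the figures.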

Additional observations from a re-analysis of the deposited data

Results flagged for a closer look

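The effect of depletion on SLC1A4 differed between time points in 1 of its 5 probe sets when no block was used. In 209610_s_at it changed by -2.49 on the log2(signal + 16) scale from 24 h to 72 h, by the test of the difference itself (limma, adjusted p = 0.0378, and 0.0166 with the set as block).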

How the results depend on the processing

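Without a block, limma called 3 of the 23 probe sets in the averaged effect, 1 at 72 h, 1 for the change from 24 h to 72 h and 0 in the other contrasts. With the set as replicate block the counts were 6 for the average, 4 at 24 h, 5 at 72 h, 5 for the change from 24 h to 72 h, 1 for that from 48 h to 72 h, 3 for control cells over time, 4 for depleted cells over time and 5 by F-test. Quantile normalization with replicate block gave 6, 5, 5, 5, 2, 3, 4 and 3 in the same order, and the block changed no other call. Centring on the 75th percentile left 1 in the average. A pseudocount of 32 gave 2 at 72 h, 1 for control cells and 1 by F-test, and a pseudocount of 4 gave 0 for the change from 24 h to 72 h. No filter gave 0 for that change, and quantile normalization 0 for it and 2 at 72 h. Without set 2 the average, 72 h and the change from 24 h to 72 h each had 0. Leaving out 1 array gave 3 to 3 in the average, 0 to 3 at 72 h, 0 to 1 for the change from 24 h to 72 h, and 0 to 1 for each medium over time. The cause was not tested. At 48 h every setting gave 0.

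Of 2238 alternative values of single genes, 2182 stayed on the same side of the threshold, 29 passed it (26 with a block), 27 lost it, and 0 called values changed sign. In 86 a value not called either way changed sign. Over all probe sets the averaged effect had 1162 calls, 4097 with the block. SLC6A9, with a median signal of 27.5, lies near the filter at 19.62.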
